A study of Mus musculus with 6 samples.

Results

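The voltage-gated calcium channel subunit genes measured here were 10 of the 24532 genes in the deposited table, namely Cacna1c, Cacna1d, Cacna1g, Cacna1h, Cacnb1, Cacnb2, Cacnb3, Cacnb4, Cacna2d1 and Cacna2d2. They were chosen by symbol, as a gene family, and each was found in 1 row. RNA was sequenced from mouse kidney and ureter at postnatal (PN) 1 in 6 libraries. Kidney gave 2 libraries for each genotype, Ahnak KO and WT, and ureter gave 1 for each. The Ahnak KO mice carry a disrupted exon 5 of Ahnak, which encodes a very large scaffold protein, and the WT mice carry no transgene that the sources name. The number of animals in each library was not stated, and the methods say that several kidneys or ureters were taken without tying them to a library. Nothing says that libraries of 1 genotype came from separate litters, so p-values measure the spread between these libraries only.

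A voltage-gated calcium channel opens when the membrane depolarizes and lets calcium into the cell. Its pore is a single large alpha-1 protein. L-type pores (Cacna1c, Cacna1d) open at strong depolarization and carry the calcium that drives smooth muscle contraction, while T-type pores (Cacna1g, Cacna1h) open at small depolarization and are known from pacemaking. A cytoplasmic beta subunit (Cacnb1 to Cacnb4) and an extracellular alpha-2-delta subunit (Cacna2d1 to Cacna2d4) help L-type pores reach the membrane and set their gating. In the ureter, calcium entry through such channels underlies the contractions that move urine from the renal pelvis to the bladder.

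The deposited counts summed to between 55744703 and 66095616 in the kidney libraries and to 36410246 (KO) and 54985927 (WT) in the ureter libraries. A count of 3, the limit that a count of 0 allows, stood for 0.0454 to 0.0824 CPM (counts scaled to the library's total) in these libraries, for counting error only. Ahnak had 148 and 139 CPM in the libraries labelled KO kidney, 198 and 203 CPM in the WT kidney libraries, 519 CPM in the library labelled KO ureter and 681 CPM in the library labelled WT ureter. By the deposited TPM (transcript abundance per length, scaled to the library) it was 20.6 and 22.2 in KO kidney against 27.7 and 24.7 in WT kidney, but 88.0 in the library labelled KO ureter against 77.5 in that labelled WT ureter, which goes against those labels. The transcript length implied by count and FPKM (fragments per length and depth) was 11315 to 14922 bases for Ahnak in the libraries labelled KO and 14668 to 16913 bases in those labelled WT. Of its 5 transcripts in GENCODE M21, 1 has 18100 bases and the others have 830 to 2200 bases. Which of them hold exon 5 was not examined. The values cover the whole gene and do not say whether reads cross the disruption, so they check the genotype labels only in part, and KO and WT ureter below mean the libraries so labelled. KO kidney replicate 1 had 176348 Xist counts and 0 counts on 4 Y-linked genes, against 17 to 36 Xist counts and 8415 to 18055 Y-linked counts in the other 5 libraries. Its list of genes at 0 was also the longest of the kidney libraries, with 7755 genes against 6415 to 6706. The values of Cacnb4, the class shares and the order of the members in kidney are given with and without it. The labelled tissues carried their markers. The summed level of 6 urothelium markers was 7862 and 8492 TPM in ureter against 85.1 to 103 TPM in kidney, and that of 8 kidney tubule markers was 1115 to 1243 TPM in kidney against 0.863 and 0.577 TPM in ureter.

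The count of a gene is a sum over all its transcripts, and the alpha-1 genes are spliced in many ways. The study's own qPCR primers for 2 of the members bear on this and are printed for that reason. By exact match, the Cacnb4 pair matches every coding transcript of its gene and the Cacna1d pair only 1. In the GENCODE M21 transcripts of GRCm38, both Cacnb4 primers matched 4 of 6 transcripts, which are all 4 protein-coding ones. They span 162 bases, from exon 5 (chr2:52469549-52469568, minus strand, coding) to exon 6 (chr2:52467251-52467270) of Cacnb4-201. The lower-case letters below give the primers and the stretch between them, 5′ to 3′.
Cacnb4 forward: gagggctgtgagattggctt
Cacnb4 reverse: tgtgggagttgctcggaatg
Cacnb4-201 amplicon: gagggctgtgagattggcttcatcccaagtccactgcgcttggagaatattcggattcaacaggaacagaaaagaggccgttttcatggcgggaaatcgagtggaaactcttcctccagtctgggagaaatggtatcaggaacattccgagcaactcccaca

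For Cacna1d, the forward primer matched all 5 protein-coding transcripts of 12, in the coding part of exon 31 of Cacna1d-207 (chr14:30089879-30089898, minus strand). The reverse primer matched 1 of the 12 exactly, Cacna1d-207, where it crosses from exon 31 (chr14:30089822-30089831) into exon 32 (chr14:30082987-30082996), both coding. The other 4 coding transcripts skip that exon and go on at chr14:30082530-30082539, so that 4 of the 20 bases at the reverse site differ. Capitals mark the bases that differ between the transcripts over the 87 bases of the product.
Cacna1d forward: ttagtgacgcctggaacacg
Cacna1d reverse: tttcagatgggtcggcttcg
Cacna1d-207: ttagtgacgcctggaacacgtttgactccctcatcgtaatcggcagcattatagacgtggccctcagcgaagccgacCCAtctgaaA
Cacna1d-201: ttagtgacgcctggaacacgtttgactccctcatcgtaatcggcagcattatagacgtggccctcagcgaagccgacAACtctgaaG
The primers had no exact match in the transcripts of any other gene. The deposited Cacna1d row lists 3 RefSeq transcripts, and which of them hold this exon was not examined. Whether the pair also gives a product from the coding transcripts without an exact match was not tested. The deposited counts and a product of this pair may therefore cover different transcripts.

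Among the pore-forming genes, T-type transcripts outnumbered L-type transcripts in every library. Levels of different genes were compared in TPM, which is per length. Cacna1g, the T-type pore Cav3.1 (chr11:94408391-94474198, minus strand, gene number 12291), had 22.2 and 17.3 TPM in KO kidney, 17.5 and 22.2 TPM in WT kidney, 4.50 TPM in KO ureter and 6.72 TPM in WT ureter. Both ureter libraries lay below all 4 kidney libraries. Cacna1h, the T-type pore Cav3.2 (chr17:25374285-25433783, minus strand, gene number 58226), had 12.1 and 10.2 TPM in KO kidney, 10.3 and 12.5 TPM in WT kidney, 3.19 TPM in KO ureter and 6.72 TPM in WT ureter. Its ureter libraries also lay below the kidney libraries, and that of the KO was the lower.

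Cacna1d, the L-type pore Cav1.3 that opens at more negative potentials than Cav1.2 (chr14:30039939-30491455, minus strand, gene number 12289), had 5.23 and 5.73 TPM in KO kidney and 5.69 and 5.41 TPM in WT kidney. It was the steadiest member in kidney, at 5.51 ± 0.238 TPM (SD, n = 4), and had 1.19 TPM in KO ureter and 2.97 TPM in WT ureter. Cacna1c, the L-type pore Cav1.2 of heart and smooth muscle (chr6:118587240-119196418, minus strand, gene number 12288), had 3.19 and 2.02 TPM in KO kidney, 2.16 and 3.22 TPM in WT kidney, 1.70 TPM in KO ureter and 1.45 TPM in WT ureter. Its range within each kidney genotype spanned nearly the whole kidney range.

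Cacna1g led the alpha-1 class in kidney. Its share of the summed TPM of the 10 alpha-1 genes in the table was 47.7% ± 1.56 (SD, n = 4), followed by Cacna1h with 27.2% ± 0.734, Cacna1d with 13.5% ± 2.09 and Cacna1c with 6.31% ± 0.874. Without KO kidney replicate 1 the shares of Cacna1g and Cacna1h were 47.5% and 27.5%. In ureter the lead was not shared by the libraries. Cacna1g held 38.6% in KO ureter against 27.4% for Cacna1h, while in WT ureter Cacna1g held 34.15% and Cacna1h held 34.17%, from 1624 and 1631 counts, which is no difference at this depth. T-type genes together (with Cacna1i) held 72.5% to 77.0% of the class in kidney, 66.4% in KO ureter and 68.3% in WT ureter. The ratio of summed T-type to summed L-type TPM was 3.53 to 4.01 in kidney, 2.68 in KO ureter and 3.03 in WT ureter. Within the L-type pair, Cacna1d exceeded Cacna1c 1.64-fold to 2.84-fold in the kidney libraries and 2.05-fold in WT ureter, while in KO ureter the order was turned, with a ratio of 0.701.

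**Figure D1:**
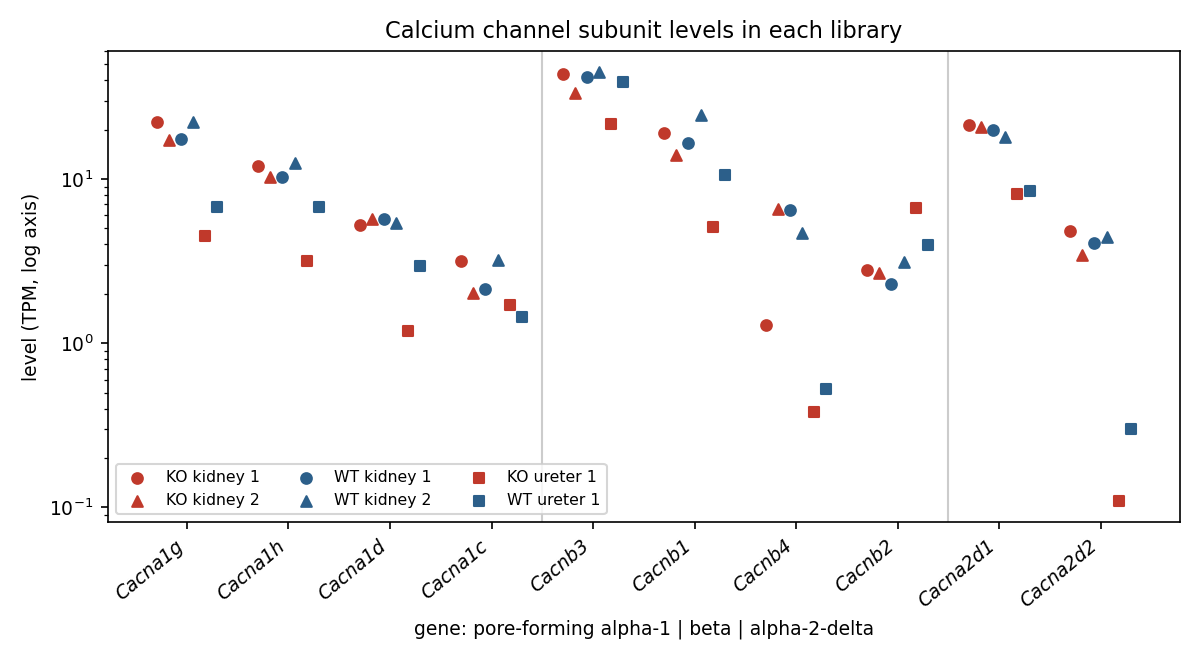
Level of each of the 10 subunit genes in every library, in TPM on a log axis, with KO libraries in red, WT libraries in blue, ureter as squares and kidney replicates 1 and 2 as circles and triangles. Cacnb3 was highest at 21.5 to 44.8 TPM in all 6 libraries, and the ureter squares sit below the kidney points for 8 of the 10 genes, above them for Cacnb2 and, for Cacnb3, 1 below and 1 within them.

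Among the beta subunits, Cacnb3 led in all 6 libraries. Cacnb3 (chr15:98630840-98644529, plus strand, gene number 12297) had 43.4 and 33.4 TPM in KO kidney, 42.1 and 44.8 TPM in WT kidney, 21.5 TPM in KO ureter and 38.8 TPM in WT ureter. Its WT ureter value lay inside the kidney range and its KO ureter value below it. It held 61.1% ± 3.27 (SD, n = 4) of the beta TPM in kidney (59.8% without KO kidney replicate 1), 63.9% in KO ureter and 72.0% in WT ureter.

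Cacnb1, known as the beta subunit of skeletal muscle (chr11:98001508-98023034, minus strand, gene number 12295), was second in kidney, with 19.1 and 14.1 TPM in KO, 16.6 and 24.6 TPM in WT and 27.5% ± 3.45 of the class. It had 5.12 TPM in KO ureter and 10.6 TPM in WT ureter. Cacnb2, the main beta subunit of heart (chr2:14603088-14987908, plus strand, gene number 12296), had 2.81 and 2.69 TPM in KO kidney, 2.29 and 3.12 TPM in WT kidney, 6.67 TPM in KO ureter and 3.98 TPM in WT ureter. It was the 1 member whose ureter libraries both lay above the kidney libraries. Its share of the class was 4.10% ± 0.558 in kidney, 19.8% in KO ureter, where it passed Cacnb1 (15.2%), and 7.38% in WT ureter, where Cacnb1 held 19.7%.

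Cacnb4, best known from the brain (chr2:52428320-52676831, minus strand, gene number 12298), had 1.28 and 6.53 TPM in KO kidney, 6.52 and 4.71 TPM in WT kidney, 0.381 TPM in KO ureter and 0.527 TPM in WT ureter. KO kidney replicate 1 lay below the other 3 kidney libraries, which ranged from 4.71 to 6.53 TPM. The counts behind these values were 293, 1490, 1701 and 1063 in kidney and 60 and 126 in ureter. Cacnb4 therefore held 1.93% of the beta TPM in KO kidney replicate 1 and 6.11% to 11.5% in the other 3, with a kidney mean of 7.30% and of 9.10% without that library, and 1.13% and 0.977% in KO and WT ureter.

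Among the alpha-2-delta subunits, Cacna2d1 led in all 6 libraries. Cacna2d1, a target of gabapentin (chr5:15934691-16374511, plus strand, gene number 12293), had 21.3 and 20.9 TPM in KO kidney, 20.0 and 18.1 TPM in WT kidney, 8.06 TPM in KO ureter and 8.49 TPM in WT ureter, and held 74.3% ± 2.14 (SD, n = 4) of the class in kidney (73.7% without KO kidney replicate 1). Cacna2d2 (chr9:107399612-107529343, plus strand, gene number 56808) had 4.83 and 3.47 TPM in KO kidney, 4.10 and 4.42 TPM in WT kidney, 0.110 TPM in KO ureter and 0.302 TPM in WT ureter. The ureter values rest on 12 and 50 counts. The second place of this class changed with the tissue. Cacna2d2 held 15.6% ± 2.26 in kidney but 0.919% and 2.16% in KO and WT ureter, while Cacna2d3 held 10.02% ± 2.22 in kidney and 31.8% and 36.3% in ureter.

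**Figure D2:**
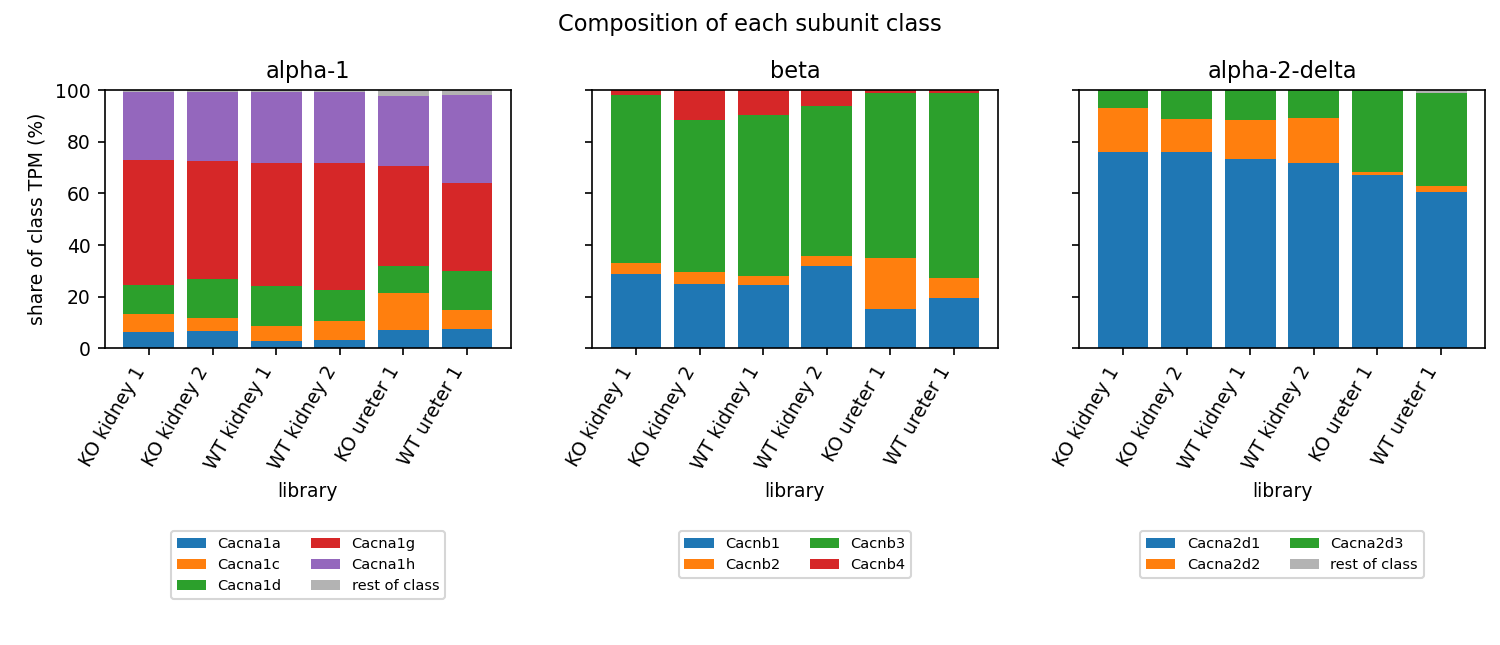
Share of each gene in the summed TPM of its class (10 alpha-1, 4 beta and 4 alpha-2-delta genes), in percent, 1 bar per library. Cacna1g is the widest alpha-1 segment in kidney at 45.6% to 49.2% and equals Cacna1h in WT ureter, and Cacnb3 and Cacna2d1 hold over 58% and 60% of their classes in every library.

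Over all 10 members, the order of mean TPM in kidney was Cacnb3, Cacna2d1, Cacna1g, Cacnb1, Cacna1h, Cacna1d, Cacnb4, Cacna2d2, Cacnb2 and Cacna1c. The ranges of Cacna2d1, Cacna1g and Cacnb1 overlapped each with the next, as did those of Cacna1d, Cacnb4 and Cacna2d2 and those of Cacnb2 and Cacna1c. Without KO kidney replicate 1, Cacnb4 (5.92 TPM) came before Cacna1d (5.61 TPM), and the other places were the same. In ureter the order was Cacnb3, Cacna2d1, Cacnb1, Cacna1g, Cacnb2, Cacna1h, Cacna1d, Cacna1c, Cacnb4 and Cacna2d2. There Cacna2d1 to Cacna1h formed a run in which each range overlapped the next, and so did Cacna1d and Cacna1c, with only 2 libraries behind each range. The transcript lengths behind the deposited values bear on these orders. The transcript length implied by the count and the FPKM of a gene varied over the libraries. Its coefficient of variation was 8.01% for Cacnb1, 2.03% for Cacnb3, 1.13% for Cacnb4 and 0.0702% (Cacna1h) to 0.546% (Cacna1g) for the other members. The median was 0.0171% in 7615 genes with 1 transcript, whose length is fixed. Other genes with several transcripts were not compared. For Cacnb1 the implied length was 2792 to 2927 bases in kidney, 3004 bases in KO ureter and 2377 bases in WT ureter. The 2 ureter libraries were thus given different mixes of Cacnb1 transcripts.

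Between tissues, most members were lower in ureter. In edgeR's quasi-likelihood test of tissue with genotype as a term (3 residual degrees of freedom, 17557 genes), 7 of the 10 members were lower in ureter at an adjusted p under 0.05 and 1 was higher. Over all genes tested, 22.3% were lower and 20.3% were higher. The median log2 fold change was -0.96 over the members and -0.08 over all genes. Kidney and ureter differ in their cells, and in bulk RNA fewer cells of a type and less RNA per cell cannot be told apart.

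The T-type pores both fell. Cacna1g had a log2 fold change of -1.44 (SE 0.174, adjusted p = 0.00100 from edgeR), which was a 2.72-fold lower level. That of Cacna1h was -0.87 (SE 0.227, adjusted p = 0.0222 from edgeR), and it was -1.34 without WT ureter and -0.46 without KO ureter. The call of Cacna1h was also lost without KO kidney replicate 2 and without WT kidney replicate 2. Of the L-type pores, Cacna1d fell by 1.12 on the log2 scale (SE 0.280, adjusted p = 0.0192 from edgeR). The size for Cacna1d depended on the ureter library, with a log2 fold change of -1.74 without WT ureter and of -0.59 without KO ureter (adjusted p = 0.0631 from edgeR). For Cacna1c the log2 difference was -0.35 (SE 0.263, adjusted p = 0.317 from edgeR) and did not pass. The sum of the smooth muscle markers differed the other way, although not every marker did. Smtn had 57.9 to 66.6 TPM in kidney, 48.5 TPM in KO ureter and 87.5 TPM in WT ureter. The 9 smooth muscle markers summed to 502 to 614 TPM in kidney and to 4433 and 5810 TPM in ureter. Cacna1c, a pore of smooth muscle, had 2.02 to 3.22 TPM in kidney and 1.45 to 1.70 TPM in ureter.

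Of the beta subunits, Cacnb1 fell by 1.04 on the log2 scale (SE 0.221, adjusted p = 0.0105 from edgeR) and Cacnb4 had a log2 fold change of -2.99 (SE 0.689, adjusted p = 0.0143 from edgeR). The log2 fold change of Cacnb4 was -3.31 without KO kidney replicate 1 and -2.30 without KO kidney replicate 2, and both its ureter levels lay below the level of KO kidney replicate 1. The call was lost without either ureter library (adjusted p = 0.0666 and 0.0731 from edgeR). Cacnb2 rose by 1.32 (SE 0.265, adjusted p = 0.00838 from edgeR), a 2.50-fold higher level. The call of Cacnb2 needed the KO ureter library. In the WT libraries alone it was 0.86 with an adjusted p of 0.0759 from edgeR. For Cacnb3 the log2 difference was -0.11 (SE 0.143, adjusted p = 0.571 from edgeR), and it was 0.10 in the WT libraries alone.

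Of the alpha-2-delta subunits, Cacna2d1 fell by 0.88 (SE 0.102, adjusted p = 0.000873 from edgeR). Cacna2d2 showed the widest tissue difference of the members, with a log2 fold change of -4.00 (SE 0.385, adjusted p = 0.000400 from edgeR), a 15.9-fold lower level in ureter. It was -4.75 without WT ureter and -3.49 without KO ureter, and was called in both. The calls rest on 2 ureter libraries. Without the KO ureter library only Cacna1g, Cacna2d1 and Cacna2d2 were called, and in the WT libraries alone 5 members were called, with Cacna1d, Cacna1h and Cacnb2 lost. With the 2 kidney libraries whose header numbers match those of the ureter libraries, 6 members were called, and Cacna1d (adjusted p = 0.0631 from edgeR) and Cacnb2 (adjusted p = 0.0661) were lost.

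**Figure D3:**
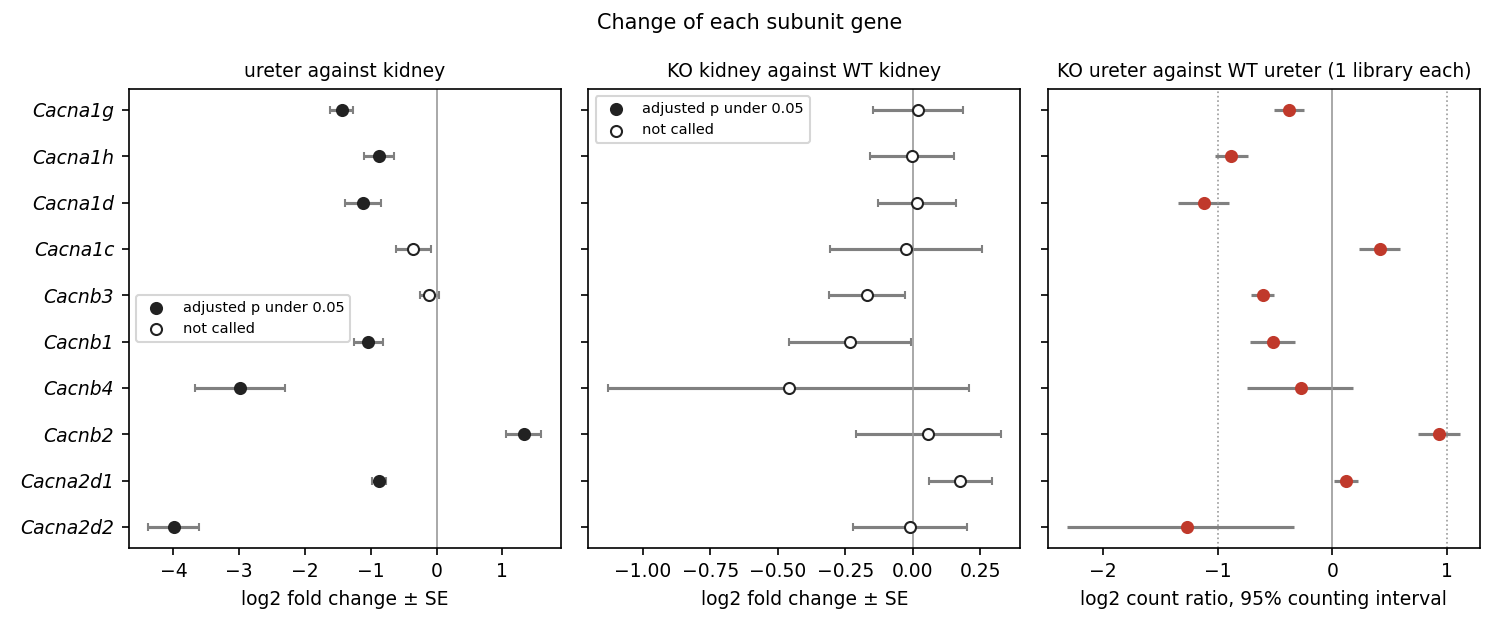
Log2 change of each subunit gene, ureter against kidney and KO kidney against WT kidney with the SE of edgeR's fit (filled points passed an adjusted p of 0.05), and KO ureter against WT ureter as a ratio of TMM-scaled counts with its 95% counting interval and dotted lines at 2-fold. 8 points are filled in the tissue panel and 0 in the kidney genotype panel, and the horizontal scales differ between panels. The count ratios in ureter have no pseudocount, and those of Cacna1d (-1.12) and Cacna2d2 (-1.27) lie past 2-fold.

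Among 16 other subunit genes, 10 could be tested between tissues, 1 was higher in ureter and 2 were lower. Cacna2d3 rose by 1.09 on the log2 scale (SE 0.263, adjusted p = 0.0170 from edgeR), with 1.89 to 3.15 TPM in kidney and 3.81 and 5.08 TPM in ureter. The lower genes were Cacng1, the gamma subunit of skeletal muscle channels (12 to 22 counts in kidney, adjusted p = 0.0355 from edgeR), and Cacng8 (20 to 34 counts in kidney, adjusted p = 0.0202 from edgeR). Both had 0 counts in the ureter libraries. Cacna1s, the pore of skeletal muscle, was also at 0 in both ureter libraries, although 10 striated muscle markers, of which Tnnt2, Ckm and Actc1 made up the largest part, summed to 388 and 798 TPM there against 7.36 to 11.3 TPM in kidney. Of these markers Tnni1 had 4.63 to 7.68 TPM in kidney but 0 and 0.623 TPM in ureter, and Ttn and Neb were lower in KO ureter than in the kidney libraries. The level of Cacng7 was 24.8 to 31.1 TPM over the 6 libraries. Of 18 genes that act on these channels, 8 were higher in ureter and 2 were lower, and values are given for 6 of the higher genes. Stac, an adaptor that binds L-type channels, rose by 3.93 (SE 0.200, adjusted p = 3.26e-05 from edgeR), from 2.10 CPM on average in kidney to 26.5 CPM in ureter. Ahnak rose by 2.10 (SE 0.0988, adjusted p = 2.51e-05 from edgeR), as did Gem, a small GTPase that inhibits the channels, by 1.54, the calcineurin subunit Ppp3ca by 0.59, and the kinases Camk2d by 0.76 and Camk2g by 0.53. Rem1, also an inhibiting GTPase, fell by 1.97 and the adaptor Stac2 by 1.59. The ranges over libraries of Ppp3ca and Camk2g overlapped between the tissues before TMM scaling.

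In kidney, no member passed the test between genotypes. edgeR's quasi-likelihood test of the 4 kidney libraries called 0 of the 10 members at an adjusted p under 0.05, where it called 0.0121% of 16481 genes. An unadjusted p under 0.05 was found for 0 members and for 227 of the 16481 genes. DESeq2 also called 0 of them. The smallest unadjusted p in edgeR was that of Cacna2d1 (0.177), for which both KO libraries (77.7 and 79.4 CPM) lay above both WT libraries (74.0 and 66.8 CPM) with a log2 fold change of 0.18 (SE 0.116, adjusted p = 1 from edgeR). Such an order was found for 11.0% of all genes tested. Cacnb3 was the member with both KO libraries (55.0 and 46.4 CPM) below both WT libraries (55.7 and 59.7 CPM), with a log2 fold change of -0.17 (SE 0.141, adjusted p = 1 from edgeR), and 15.4% of all genes tested had that order. By TPM its genotypes overlapped, with 43.4 and 33.4 TPM in KO against 42.1 and 44.8 TPM in WT. For the other 8 members the genotypes overlapped by CPM, with log2 differences between -0.46 (Cacnb4) and 0.06 (Cacnb2). Of the other subunit genes 8 could be tested and 0 were called, and of the 18 regulators 0 were called. Cacna1a, a pore known from neurons, had the lowest unadjusted p of these subunits (0.00523 in edgeR), with 11.1 and 10.2 CPM in KO kidney against 4.12 and 6.02 CPM in WT kidney and a log2 difference of 1.09 (SE 0.258, adjusted p = 1 from edgeR).

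The size of difference that these libraries could show varied among the members. The SE was 0.116 to 0.281 on the log2 scale for 9 members and 0.670 for Cacnb4, whose KO libraries had 5.14 and 26.7 CPM against 25.7 and 18.7 CPM in WT. The difference between the KO libraries exceeded that between the genotypes. Without KO kidney replicate 2 the log2 fold change of Cacnb4 was -2.10 (adjusted p = 0.0120 from edgeR), and without KO kidney replicate 1 it was 0.28 (adjusted p = 1 from edgeR). The direction therefore depended on which KO library was kept. KO kidney replicate 1 is also the library with Xist counts and no Y-linked counts, and 8 neuron markers summed to 8.72 TPM there, with 5 of them at 0, against 12.3 to 13.8 TPM in the other kidney libraries. Their part in the Cacnb4 value was not tested.

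A second order of the kidney libraries, taken up after the data were examined, crossed the genotypes. For 9 of the 10 members the TPM of KO kidney replicate 1 and WT kidney replicate 2 lay on one side of the other 2 libraries, above them for 7 members and below them for Cacna1d and Cacnb4. Cacna1g had 22.20 and 22.24 TPM in the first pair and 17.3 and 17.5 TPM in the second, and Cacna1c had 3.19 and 3.22 TPM against 2.02 and 2.16 TPM. Over 17200 genes with at least 10 counts in a kidney library, 47.7% showed such an order, 26.4% above and 21.2% below. All 8 kidney tubule markers did, 5 above and 3 below. So did 3 of 5 podocyte markers, 3 of 6 urothelium markers, 2 of 9 smooth muscle markers and 0 of 4 endothelium markers, as well as 4 of the 16 other subunit genes and 8 of the 18 regulators. Slc34a1, a phosphate transporter of the proximal tubule, had 223 and 209 TPM against 141 and 147 TPM, and Calb1, a marker of the distal and connecting tubule, had 160 and 129 TPM against 206 and 200 TPM. Of the header numbers, whose meaning is not given, the second was 2 for both libraries of the first pair. It was 3 for KO kidney replicate 2 and 6 for WT kidney replicate 1. The part of tissue composition, or of what these numbers stand for, in the members' values was not tested.

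**Figure D4:**
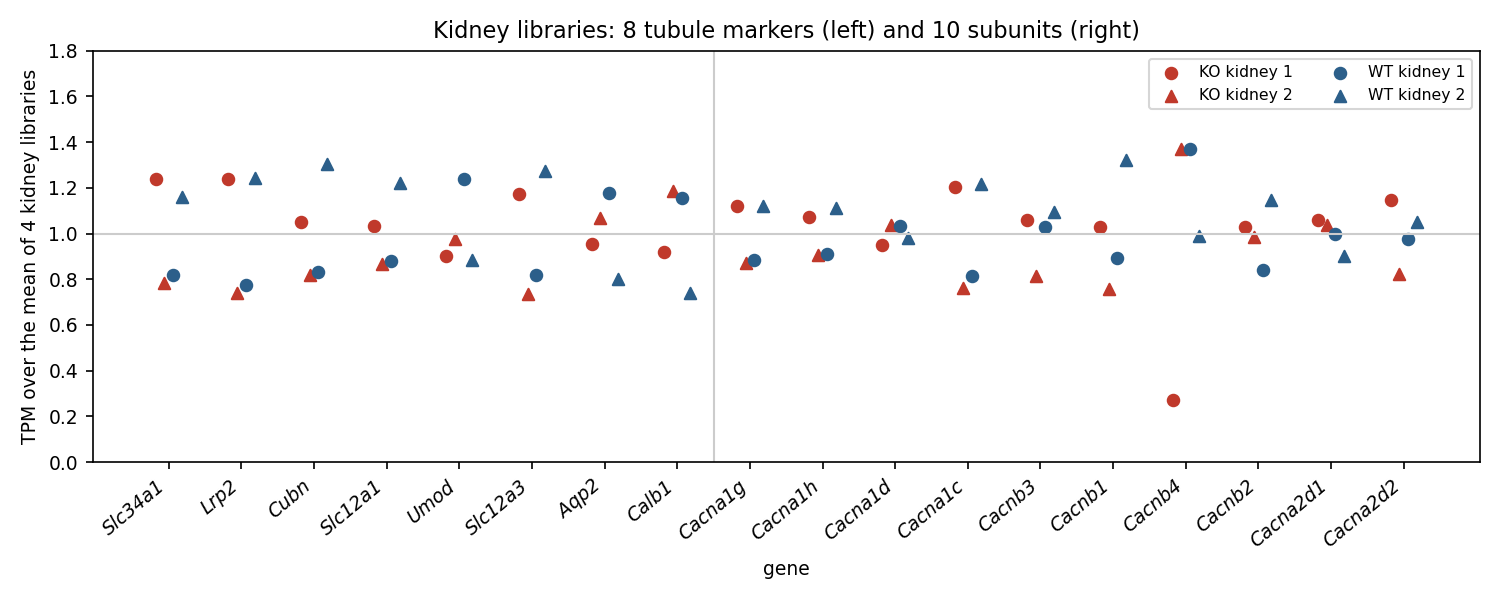
TPM of 8 kidney tubule markers and the 10 subunit genes in each kidney library, divided by the mean of the 4 libraries, with KO in red, WT in blue, replicate 1 as circles and replicate 2 as triangles. KO kidney replicate 1 and WT kidney replicate 2 lie on the same side of the other 2 libraries for all 8 markers and for 9 of the 10 subunit genes, and Cacnb4 in KO kidney replicate 1 is the lowest point.

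In ureter there was 1 library a genotype, so the values below compare 2 libraries and have no replicate check. The ratio of CPM + 0.5 with TMM factors was past 2-fold for 1 of the 10 members, lower, and for 0 higher. Over 16117 genes with at least 10 counts in 1 of the libraries, 5.75% were past 2-fold lower and 4.50% higher. The median log2 ratio was -0.43 over the members and -0.02 over all genes. Between the same libraries the summed striated muscle markers were 388 TPM in KO against 798 TPM in WT, with Actc1 at 52.1 against 242 TPM. The 9 smooth muscle markers summed to 4433 against 5810 TPM. Of these, Myh11 (395 against 382 TPM), Des (86.4 against 76.4 TPM) and Myocd (14.3 against 11.3 TPM) were higher in KO ureter, and the others were lower. The part of muscle content in the members' values was not tested. The member past 2-fold by the ratio of CPM + 0.5 was Cacna1d, with 213 counts in KO ureter and 804 in WT ureter. Its log2 ratio was -1.06 (95% exact interval of the count ratio -1.35 to -0.90, for counting error only). Both T-type pores had lower values in the KO library, with log2 ratios of -0.86 for Cacna1h (interval -1.03 to -0.74) and -0.37 for Cacna1g (interval -0.51 to -0.25).

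The L-type pores went opposite ways in these libraries, since Cacna1c had a log2 ratio of 0.40 (interval 0.23 to 0.59). Of the beta subunits, Cacnb2 had the highest ratio of the members, 0.89 (interval 0.75 to 1.11). Cacnb3 had a ratio of -0.60, Cacnb1 one of -0.50 and Cacnb4 one of -0.22, whose interval of -0.75 to 0.18 included 0. For Cacnb1 the ratio depended on scaling and unit. It was -0.50 from counts with TMM factors, -0.69 from counts scaled by library size alone and -0.98 from log2(TPM + 0.5), which also divides by the differing transcript lengths. Cacna2d2 had a ratio of -0.66 with the pseudocount of 0.5 CPM, but a log2 count ratio without it of -1.27, which is past 2-fold. The interval of that count ratio was -2.31 to -0.34, which is wide because of its 12 and 50 counts. Cacna2d1 had a ratio of 0.12. Scaling by library size alone moved the median of all genes to -0.20, and Cacna1h was then past 2-fold too (-1.05) and Cacna2d1 was at -0.08.

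**Figure D5:**
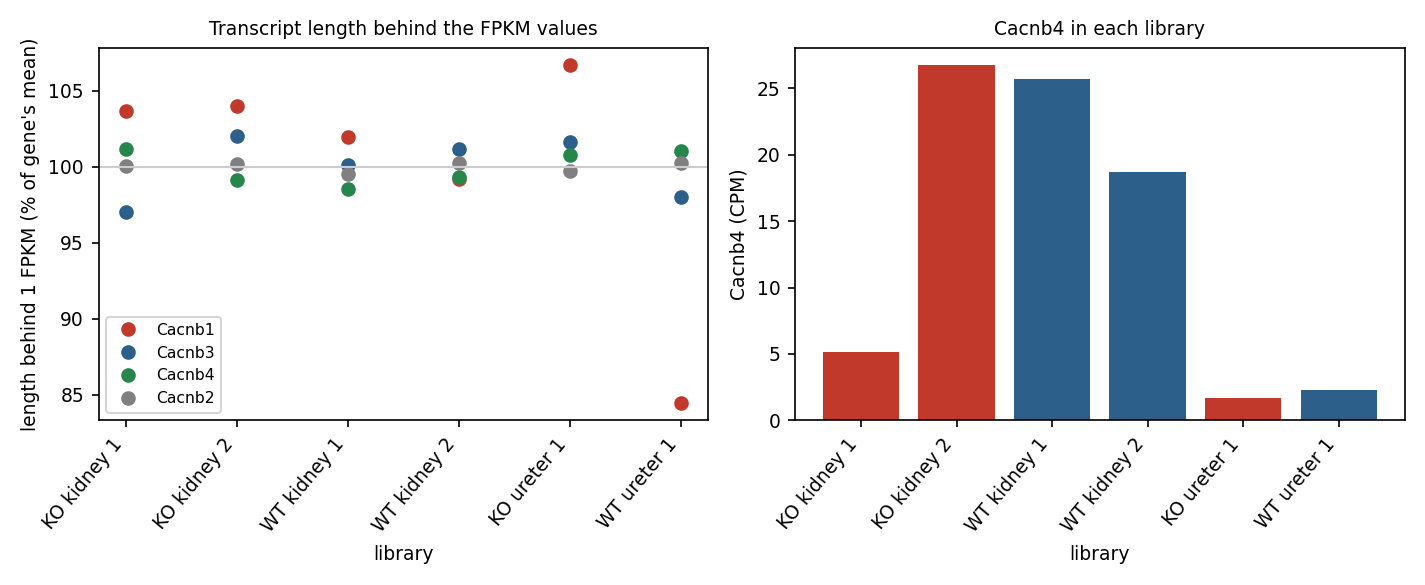
Left, the transcript length implied by count and FPKM for the 4 beta subunit genes in each library, as a percentage of the gene's mean (axis not from 0); right, Cacnb4 in CPM in each library, with KO bars in red and WT bars in blue. Cacnb1 is shortest in WT ureter (2377 bases) and longest in KO ureter (3004 bases), and Cacnb4 has 5.14 CPM in KO kidney 1 against 18.7 to 26.7 CPM in the other kidney libraries.

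Whether the genotype difference itself differed between ureter and kidney was tested by the interaction of tissue and genotype in all 6 libraries, in which the ureter libraries are assumed to vary as the kidney libraries do. edgeR called 0 of the 10 members at an adjusted p under 0.05, where 0.108% of 17557 genes were called. An unadjusted p under 0.05 in edgeR was found for 3 members and for 2174 of the 17557 genes. DESeq2 also called 0 members. The 3 members were Cacna1d with a log2 difference of differences of -1.14 (SE 0.280, adjusted p = 0.219 from edgeR), Cacna1h with -0.88 (SE 0.269, adjusted p = 0.289) and Cacna2d2 with -1.26 (SE 0.497, adjusted p = 0.394). Each had a lower value in KO ureter relative to WT ureter than in the kidney pair. For Cacnb2 it was 0.87 (SE 0.414, adjusted p = 0.469 from edgeR) and for Cacnb4 it was 0.18 with an SE of 1.30.

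The genes whose level followed 3 of the members most closely over the 6 libraries were read by Pearson's r of log2(TPM + 0.1) among 14697 genes with a mean of at least 1 TPM. The points share libraries and tissues, so these are descriptions over 6 points. For Cacna1h they were Snrpa1 (r = 0.9995), Gstz1, Zc3h15, Phpt1 and Sipa1. For Cacna1c they were Atp6v1h (r = 0.994), Idh1, D6Wsu163e, Trim32 and Cpeb3. For Cacnb4 they were Pwp2 (r = 0.998), Polr3c, 1810030O07Rik, Ppp4r1 and Mzf1. Each had its lowest kidney value in KO kidney replicate 1, which their choice by r with Cacnb4 favours and which is no separate result. Pwp2 had 12.7 TPM there against 17.3 to 19.2 TPM in the other kidney libraries, a much smaller gap than that of Cacnb4.

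Several members overlap other genes in GRCm38. Cacna1c overlaps Dcp1b, Cacna1d overlaps Chdh and Dcp1a, and Cacna1h overlaps Tpsg1, all protein-coding. Cacna1g and Cacnb3 overlap no annotated gene. The kit keeps strand, but the sources do not say whether counting used it, and the share of reads from an overlapping gene in the counts of those members was not tested.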

How the data were processed

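Reads were processed by the authors before deposit, and the table gives for each gene and library an estimated count, FPKM and TPM. The estimated counts were deposited as whole numbers and were used as they are, and the FPKM and TPM values are the authors' normalization of them by transcript length and depth. Accounts of the processing differ. The submitters' processing notes name FastQC 0.11.7, Trimmomatic 0.38, HISAT2 2.1.0, StringTie 1.3.4b and mm10, while the methods name Cutadapt, STAR, Cufflinks and GRCm39. The submitters' titles number the ureter libraries among the kidney libraries, and their tissue was taken from the source label and the table's header. The libraries of the same genotype in ureter and in 1 kidney replicate carry the same header numbers, whose meaning is not given. All 18 measurement columns were matched to a sample.

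Counts were tested with edgeR 4.0.16 in R 4.3.3 (TMM, filterByExpr, quasi-likelihood test, Benjamini-Hochberg adjustment over all genes tested, called at an adjusted p under 0.05). The 4 kidney libraries were compared by genotype. All 6 libraries were compared by tissue with genotype as a term and by the interaction of tissue and genotype. Each SE was approximated from the log2 fold change and its F statistic. The ureter libraries were compared by log2(CPM + 0.5) with TMM factors for genes with at least 10 counts, with exact 95% conditional binomial intervals. Class shares used all 10 alpha-1 genes, 4 beta genes and 4 alpha-2-delta genes in the table. Alternatives were DESeq2 1.42.0, its size factors, library size alone, no filter, limma 3.58.1 on FPKM, a replicate block and leaving out each library. The edgeR script was tested on simulated data. Named genes were the 10 members, from lists of 16 other subunits and 18 regulators those that passed a test or held the highest share of a class, and for 3 members the 5 genes most alike. Cacna1a, Cacna1s and Cacng7 were picked with their values in view. The members and lists were chosen with earlier results of these data known. Depth was 36410246 to 66095616 counts, and intervals cover counting error only. Gene positions and transcripts are from GENCODE M21 (GRCm38). The values of 2 genes in the list of genes that act on the channels are not reported here, and both stay in its counts.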

Additional observations from a re-analysis of the deposited data

How the results depend on the processing

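In kidney, 0 members were called between genotypes in every setting with all 4 libraries, including DESeq2, no filter, limma on FPKM, the replicate block (0 members) and a crossed replicate block added after the data were examined (0 members and 1 gene of all tested, against 0 genes with the replicate block). Same-numbered kidney libraries did not deviate together from their genotype means (correlation -0.193 over the genes tested), and no call among the members changed with the block. With 2 libraries a genotype, replicates 1 and 2 give the same correlation by construction. With 1 library left out the count was 0 to 1, the 1 being Cacnb4 without KO kidney replicate 2. Differences near 0 changed sign. Cacna1d was -0.0028 with library size alone, -0.0043 with limma on log2(FPKM + 1) and -0.0063 on log2(FPKM + 0.1), and Cacna1h was 0.0025 with the replicate block and 0.0024 with the crossed one. With 1 library left out, the log2 difference ran from -0.36 to 0.29 for Cacna1c, -0.088 to 0.11 for Cacna1d, -0.15 to 0.20 for Cacna1g, -0.14 to 0.15 for Cacna1h, -0.47 to 0.051 for Cacnb1, -0.16 to 0.30 for Cacnb2, -2.10 to 0.28 for Cacnb4 and -0.23 to 0.18 for Cacna2d2. The cause of these changes was not tested, and 2 libraries a genotype limit all of them. DESeq2 called 44 genes of all tested in kidney, against 2 in edgeR.

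Between tissues, 5 members were called in the WT libraries alone (0 higher), and 6 were called (0 higher) with the kidney libraries whose header numbers match the ureter libraries. Those settings have fewer libraries, and the second, like the kidney order and shares of all genes without KO kidney replicate 1, was added after the data were examined. With 1 library left out, 3 to 8 members were called, 0 to 1 higher and 3 to 7 lower. The log2 difference of Cacnb3 was 0.10 in the WT libraries alone and -0.34 to 0.11 with 1 library left out. Scaling by library size alone moved the median of all genes from -0.08 to -0.37 and left 8 members called. For the interaction, 0 members were called in any setting. With 1 library left out, it ran from -0.56 to 1.82 for Cacnb4 and from -0.13 to 0.016 for Cacna2d1. DESeq2 called 479 genes there, against 19.

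In ureter, 2 members were past 2-fold, both lower, with library size alone (Cacna1d and Cacna1h) and with a pseudocount of 0.1 (Cacna1d and Cacna2d2), and 0 with log2(FPKM + 0.5), where the pseudocount is large beside the values. The leading member of each class by its mean share over the libraries of a tissue was the same by TPM, FPKM, CPM and among the members only, but in WT ureter alone Cacna1h and Cacna1g held 34.17% and 34.15% by TPM and 32.0% and 31.9% by CPM. In kidney, Cacna1g held 44.8% by CPM, not per length, and 50.4% among the members only, Cacnb3 held 52.0% by CPM, and Cacna2d1 held 81.6% by CPM and 82.7% among the members only. In ureter, Cacna1g held 40.1% among the members only, and Cacna2d1 held 77.7% by CPM and 97.6% among the members only. Low counts limit Cacna2d2 in ureter most.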
